A study of Homo sapiens with 8 samples.

Results

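The 9 genes described here encode small nuclear RNAs (snRNAs) of the 2 human spliceosomes. RNU2-2P, RNU4-1, RNU4-2, RNU5A-1 and RNU5B-1 belong to the major spliceosome, and RNU11, RNU12, RNU4ATAC and RNU6ATAC to the minor one, which shares U5 with it. They were taken by name from the 62700 genes of the GENCODE 44 annotation, which types 1901 genes as snRNA, all 9 among them. A crosslink site was counted for a gene when it lay on the same strand, within the annotated body or up to 5 nt upstream of it. Contacts were mapped by iCLIP in nuclear fractions of U2OS cells, a line established from a human osteosarcoma. Ultraviolet light links a protein to the RNA it touches, and the cDNA copied from the precipitated fragment tends to end at the linked nucleotide. The 8 libraries formed 4 groups of 2: an antibody against dyskerin (mouse), control IgG (mouse) labelled for the dyskerin set, an antibody against GAR1 (rabbit), and control IgG (mouse) labelled for the GAR1 set. The GAR1 antibody thus had a control from another species. The labels number the replicates but do not state separate cultures, so the p-values cover the spread between these libraries alone, and that spread may be technical.

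Spliceosomal snRNAs are short, stable RNAs that recognise splice sites and form the catalytic centre of the spliceosome. They carry modified bases, pseudouridines among them. Dyskerin is the pseudouridine synthase of the H/ACA particle, and GAR1 is another core protein of that particle. In the particle an H/ACA guide RNA pairs with the target and places a uridine in the active site. The guides for snRNAs are mostly small Cajal body RNAs (scaRNAs), so an snRNA can touch the enzyme as its target. U2 pairs with the branch site of the intron, U4 holds U6 until activation, and U5 aligns the exons through its loop. U11 and U12 recognise the 5′ splice site and the branch site of the rare minor introns, where U4atac and U6atac take the roles of U4 and U6. Most of these RNAs also carry a short uridine-rich element on which a ring of Sm proteins is assembled.

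The deposited values are counts of cDNAs at significant sites. The 2 dyskerin libraries summed to 1693951 and 1875459 and their IgG libraries to 146514 and 8183. The 2 GAR1 libraries summed to 585454 and 1976518 and their IgG libraries to 295255 and 10701. On average a dyskerin site held 1.88 and 2.03 cDNAs, and a GAR1 site 23.6 and 37.0. Sites below the threshold of the caller were not listed, so a 0 below means that no significant site was listed. Levels are given as cDNAs and as CPM, the cDNAs per 1000000 peak cDNAs of the library. The second IgG library of each set was by far the shallowest of its set, and single cDNAs weigh heavily in its CPM values.

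The 9 snRNAs together held 3746 and 5018 cDNAs in the dyskerin libraries, against 275 and 39 in their IgG libraries. They held 3012 and 16145 cDNAs in the GAR1 libraries, against 1287 and 83 in theirs. As a share of all peak cDNAs this was 0.244% ± 0.033 for dyskerin and 0.332% ± 0.20 for its IgG, and 0.666% ± 0.21 for GAR1 and 0.606% ± 0.24 for its IgG (SD, n = 2 each). The shares of each antibody overlapped those of its own IgG. Of the cDNAs in all snRNA genes, the 9 made up 29.8% and 40.6% with dyskerin, and 18.1% (275 of 1522) and 39 of 130 with its IgG. They made up 60.2% and 75.5% with GAR1, and 68.4% and 53.9% with its IgG. No cDNA was listed 6 to 50 nt upstream, 1 to 50 nt downstream or on the other strand of any of the 9 genes in any of the 8 libraries.

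RNU12 held the most cDNAs of the 9 in all libraries but the first IgG library of the dyskerin set, where RNU5B-1 had 99 and RNU12 had 92. Its sequence is printed with the 5 nucleotides that held the most cDNAs in capitals. It is printed once for dyskerin and once for GAR1, because these nucleotides were not the same for the 2 proteins. It lies on chromosome 22 of GRCh38, chr22:42615244-42615393, plus strand, and is 150 nt long. All sequences are reference sequence read 5′ to 3′ along the RNA, with T for U.
RNU12, dyskerin: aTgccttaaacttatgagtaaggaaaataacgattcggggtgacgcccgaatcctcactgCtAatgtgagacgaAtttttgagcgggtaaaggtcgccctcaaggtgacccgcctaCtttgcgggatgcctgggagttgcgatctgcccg
RNU12, GAR1: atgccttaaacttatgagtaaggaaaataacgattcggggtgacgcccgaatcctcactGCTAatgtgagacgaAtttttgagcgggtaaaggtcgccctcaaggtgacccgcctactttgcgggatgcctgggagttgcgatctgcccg
The capitals held 37.5% of the 3772 dyskerin cDNAs and 38.5% of the 10801 GAR1 cDNAs.
RNU4-1 and RNU4-2 are the near-identical U4 genes, shown to make visible how closely the dyskerin sites lay on equivalent nucleotides. RNU4-1 lies at chr12:120293097-120293237 and RNU4-2 at chr12:120291763-120291903, both on the minus strand and 141 nt long.
RNU4-1, dyskerin: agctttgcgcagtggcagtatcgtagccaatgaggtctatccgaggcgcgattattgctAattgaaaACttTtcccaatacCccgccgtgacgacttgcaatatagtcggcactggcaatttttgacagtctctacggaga
RNU4-2, dyskerin: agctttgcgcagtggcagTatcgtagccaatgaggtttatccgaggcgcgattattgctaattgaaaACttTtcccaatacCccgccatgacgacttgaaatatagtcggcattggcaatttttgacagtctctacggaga
RNU2-2P, a U2 gene on the minus strand at chr11:62841619-62841809, lies within WDR74 on the same strand, and RNU11 is at chr1:28648600-28648733 on the plus strand. Both are shown for GAR1, whose libraries held more of their cDNAs, to let the capitals be read against the uridine-rich Sm element.
RNU2-2P, GAR1: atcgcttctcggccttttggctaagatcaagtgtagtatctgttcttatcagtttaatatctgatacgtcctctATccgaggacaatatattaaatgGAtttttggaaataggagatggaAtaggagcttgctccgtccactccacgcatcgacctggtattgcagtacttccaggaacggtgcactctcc
RNU11, GAR1: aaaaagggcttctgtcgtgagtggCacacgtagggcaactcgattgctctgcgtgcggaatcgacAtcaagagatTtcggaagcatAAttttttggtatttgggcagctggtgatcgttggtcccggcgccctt
RNU5A-1 lies at chr15:65296051-65296166 on the plus strand, opposite PARP16. RNU4ATAC lies at chr2:121530881-121531007 on the plus strand, inside CLASP1-AS1 on that strand and opposite CLASP1, and RNU6ATAC at chr9:134164439-134164564 on the minus strand.

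RNU12, the U12 snRNA that pairs with the branch site of minor introns, held 1548 and 2224 cDNAs in the dyskerin libraries and 92 and 20 in their IgG libraries, or 914 and 1186 CPM against 628 and 2444 CPM. In the GAR1 libraries it held 1812 and 8989 cDNAs, against 768 and 53 in their IgG libraries, or 3095 and 4548 CPM against 2601 and 4953 CPM. In both pairs the CPM of the antibody libraries lay between the 2 IgG values, so the groups overlapped. Per peak cDNA pooled over replicates, dyskerin stood at 1.46 times its IgG and GAR1 at 1.57 times its IgG. RNU11, the U11 snRNA that recognises the minor 5′ splice site, held 70 and 35 cDNAs with dyskerin and none in the matching IgG libraries. With GAR1 it held 79 and 476 cDNAs, against 2 and 0 with IgG. RNU11 was therefore above IgG in both pairs without overlap, at levels far below RNU12. RNU4ATAC, the U4 counterpart of the minor spliceosome, held 36 and 71 cDNAs with dyskerin and 0 and 0 with its IgG. It held 50 and 243 cDNAs with GAR1 and 19 and 0 with its IgG. RNU6ATAC, the minor counterpart of U6, held 2 and 15 cDNAs with dyskerin and none in the other 6 libraries, and it was too low to be tested.

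RNU2-2P held 605 and 1415 cDNAs with dyskerin and 61 and 19 with its IgG, or 357 and 755 CPM against 416 and 2322 CPM. It held 390 and 3254 cDNAs with GAR1 and 315 and 19 with its IgG, or 666 and 1646 CPM against 1067 and 1776 CPM. Both pairs overlapped. RNU4-2, a U4 gene, held 426 and 525 cDNAs with dyskerin and none in the 2 IgG libraries of that set. With GAR1 it held 353 and 1631 cDNAs, against 131 and 11 with IgG, or 603 and 825 CPM against 444 and 1028 CPM. RNU4-1, the other U4 gene, held 201 and 305 cDNAs with dyskerin and again none with its IgG. It held 289 and 1300 cDNAs with GAR1 and 36 and 0 with its IgG. U4 was thus listed in both dyskerin libraries and in neither of their controls, whereas the GAR1 controls held it.

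RNU5B-1, a gene of the U5 snRNA, held 660 and 330 cDNAs with dyskerin and 99 and 0 with its IgG, or 390 and 176 CPM against 676 and 0 CPM. With GAR1 it held 38 and 193 cDNAs, against 16 and 0 with IgG, or 64.9 and 97.7 CPM against 54.2 and 0 CPM. RNU5A-1, the second U5 gene, held 198 and 98 cDNAs with dyskerin and 23 and 0 with its IgG. It held 1 and 59 cDNAs with GAR1 and none with IgG of that set. The first IgG library of the dyskerin set was above both dyskerin libraries in CPM for both U5 genes, and the second held none of either.

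**Figure D1:**
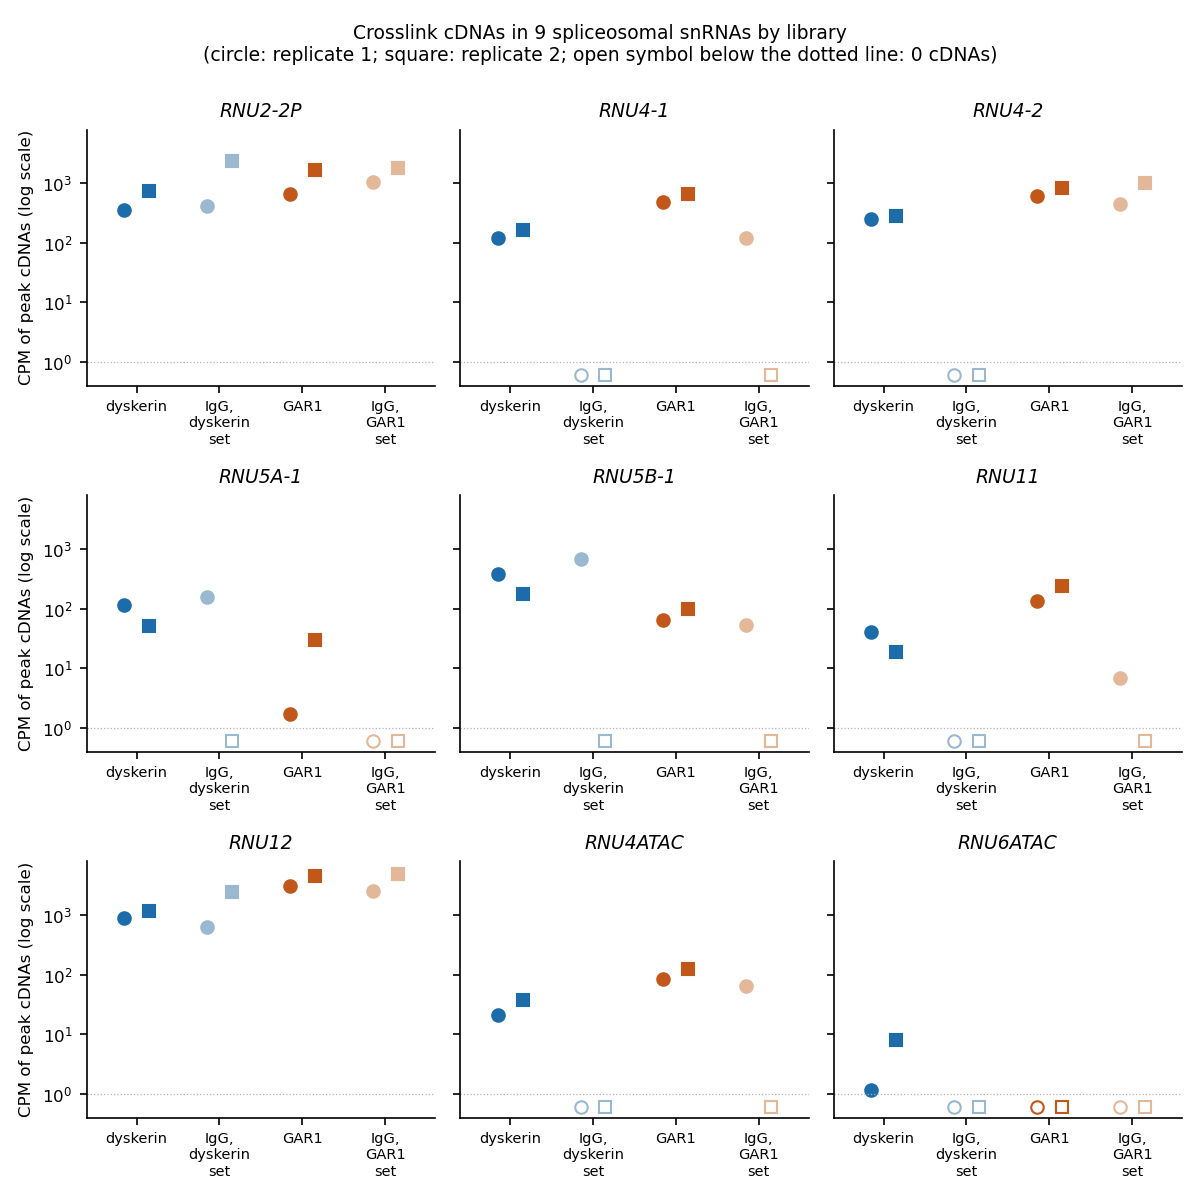
CPM of the 9 snRNAs (y axis, logarithmic; libraries with 0 cDNAs drawn at the bottom), with 1 point per library for dyskerin, its IgG, GAR1 and its IgG. The GAR1 points of RNU12 lie at 3095 and 4548 CPM and its dyskerin points at 914 and 1186 CPM, while RNU4-1 and RNU4-2 have no cDNA in the IgG libraries of the dyskerin set.

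Scaled to length, the order of the levels could be compared between genes. In the dyskerin libraries RNU12 had 700 ± 128 CPM per 100 nt, RNU2-2P 291 ± 147, RNU5B-1 244 ± 130, RNU4-2 188 ± 14, RNU4-1 99.7 ± 22, RNU5A-1 72.9 ± 39, RNU4ATAC 23.3 ± 9.2, RNU11 22.4 ± 12 and RNU6ATAC 3.64 ± 3.8 (SD, n = 2). Along this order RNU2-2P, RNU5B-1 and RNU4-2 did not differ beyond the spread of their replicates, nor did RNU4-1 and RNU5A-1, nor RNU4ATAC and RNU11. In the GAR1 libraries RNU12 had 2548 ± 685 CPM per 100 nt, RNU2-2P 605 ± 363, RNU4-2 506 ± 111, RNU4-1 408 ± 82, RNU11 140 ± 56, RNU4ATAC 82.03 ± 21, RNU5B-1 70.1 ± 20 and RNU5A-1 13.6 ± 17. RNU2-2P, RNU4-2 and RNU4-1 did not differ beyond their spread there, nor did RNU4ATAC and RNU5B-1. RNU5B-1 stood among the higher members with dyskerin and RNU11 among the lowest, and with GAR1 RNU11 stood above RNU5B-1. In the dyskerin IgG set RNU12 had 1024 ± 856, RNU2-2P 717 ± 706 and RNU5B-1 291 ± 412, while RNU4-1, RNU4-2 and RNU11 had none. In the GAR1 IgG set RNU12 had 2518 ± 1109, RNU2-2P 744 ± 262, RNU4-2 522 ± 293, RNU5B-1 23.4 ± 33 and RNU11 2.53 ± 3.6. RNU12 followed by RNU2-2P thus led the order in IgG as well as with each antibody.

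The make-up of the members' cDNAs showed the same contrast between RNU5A-1 with RNU5B-1 and the minor pair. U11 and U12 together supplied 43.2% and 45.0% of the members' cDNAs with dyskerin and 62.8% and 58.6% with GAR1. RNU5A-1 and RNU5B-1, the U5 genes among the members, supplied 22.9% and 8.53% with dyskerin and 1.30% and 1.56% with GAR1. Other genes named RNU5 held more cDNAs, 1729 and 1566 with dyskerin and 967 and 1906 with GAR1. The contrast is thus given for RNU5A-1 and RNU5B-1 alone. U2 supplied 16.2% and 28.2% with dyskerin and 12.95% and 20.2% with GAR1, so its shares overlapped. U4 supplied 16.7% and 16.5% with dyskerin and 21.3% and 18.2% with GAR1. The shares of the minor pair in the IgG libraries overlapped those of their own antibody: U11 and U12 supplied 33.5% and 51.3% in the dyskerin IgG set, and 59.8% and 63.9% in the GAR1 IgG set. U5 supplied 44.4% and 0% in the dyskerin IgG set, and 1.24% and 0% in the GAR1 IgG set.

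**Figure D2:**
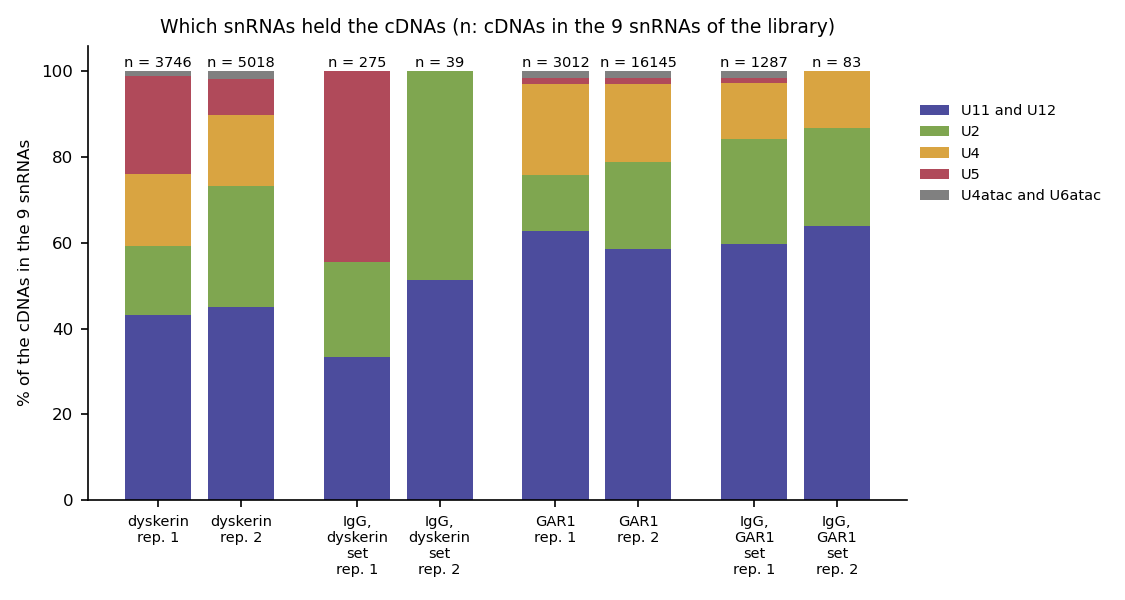
Share of the members' cDNAs (y axis, percent) from U2, U4, U5, U11 with U12, and U4atac with U6atac, as a stacked bar for each of the 8 libraries. U11 with U12 takes 58.6% to 62.8% of the GAR1 bars and 43.2% to 45.0% of the dyskerin bars. U5, counted from RNU5A-1 and RNU5B-1 alone, takes 22.9% and 8.53% of the dyskerin bars.

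Of the 9 snRNAs, 8 had at least 10 counts in at least 2 libraries and were tested among 6443 genes with edgeR. Against its IgG, dyskerin had 0 of the 8 called higher or lower at an adjusted p under 0.05, with 0.0% of all genes tested called in either direction. Without adjustment 1419 genes were higher and 8 lower at p under 0.05, and DESeq2 also called 0. The edgeR log2 fold changes were 0.34 ± 1.31 (SE) for RNU12 (adjusted p = 0.958), −0.28 ± 1.60 for RNU2-2P (adjusted p = 0.973) and −0.62 ± 2.41 for RNU5B-1 (adjusted p = 0.958). These directions are not settled: RNU12 was at −0.50 when scaled by total peak cDNAs, RNU5B-1 was at 0.76 without the second dyskerin library, and RNU2-2P was at 1.36 with sites of at least 3 cDNAs. For the members with no listed IgG cDNA in that set only a bound on listed cDNAs can be given. It was taken against a floor of 3 cDNAs over the group and per listed peak cDNA. IgG cDNAs at sites that were not listed could exceed that floor. RNU4-2 was at least 13.7-fold higher in dyskerin libraries than in IgG libraries, RNU4-1 at least 7.31-fold, RNU4ATAC at least 1.55-fold and RNU11 at least 1.52-fold. With TMM scaling the bounds were 12.4, 6.59, 1.39 and 1.37. The adjusted p of RNU4-2 and of RNU4-1 was 0.218 each in edgeR, and RNU4-2 was called higher when genes needed at least 50 counts in 2 libraries. The CPM of 4 of the 8 lay above IgG without overlap, namely RNU4-1, RNU4-2, RNU11 and RNU4ATAC, against 70.4% of all genes tested. None lay below IgG without overlap, against 1.4% of all genes.

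GAR1 against its IgG likewise had 0 of the 8 called in either direction in edgeR, with 0.0% of all genes called higher and 0.0% lower. Before adjustment 1003 genes were higher and 5 lower at p under 0.05, and DESeq2 called 107 higher and 21 lower. The log2 fold changes depended on scaling: RNU12 was at 4.49 ± 1.5 (SE) with TMM (adjusted p = 0.231), 0.03 with total peak cDNAs and −0.40 with DESeq2, and RNU2-2P at 4.32 ± 1.82 (adjusted p = 0.279), −0.28 and −0.71. RNU4-1 kept a positive sign under the 3 scalings in edgeR and DESeq2, with 6.86 ± 2.48 under TMM (adjusted p = 0.273) and 2.73 under total peak cDNAs. RNU11, RNU5A-1, RNU5B-1 and RNU4ATAC also kept a positive sign under the 3 scalings. RNU11 was at 8.99 ± 3.42 with TMM (edgeR, adjusted p = 0.273), 4.84 with total peak cDNAs and 3.88 with DESeq2, from 2 IgG cDNAs. Without the first GAR1 library, RNU12, RNU2-2P and RNU4-1 were called higher in edgeR, among 737 genes. The GAR1 arm is then 1 library, assumed to vary like the other groups, as is any arm that loses a library. Pooled per peak cDNA, RNU4-1 stood at 5.27 times IgG, RNU4ATAC at 1.84, RNU5B-1 at 1.72, RNU4-2 at 1.67 and RNU2-2P at 1.30. RNU5A-1, with no listed IgG cDNA, was at least 2.39-fold higher in GAR1 libraries per listed peak cDNA and at least 30.2-fold with TMM. Both bounds came from 1 and 59 cDNAs and cover listed cDNAs alone. The CPM of 5 of the 8 lay above IgG without overlap (RNU4-1, RNU5A-1, RNU5B-1, RNU11 and RNU4ATAC), or 62.5%, against 10.5% of all genes tested. None lay below, against 0.621% of all genes. Of the 6443 genes, 3223 had no cDNA in any of the 4 libraries of the GAR1 set and could not stand apart.

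Dyskerin was then set directly against GAR1, a comparison in which protein and library set cannot be told apart. The mean CPM of the IgG libraries also differed between the sets. In the dyskerin and GAR1 IgG sets it was 1536 and 3777 for RNU12, 0 and 736 for RNU4-2, and 0 and 61 for RNU4-1. It went the other way for RNU5A-1, at 78.5 and 0, and RNU5B-1, at 338 and 27.1. These means carry SDs of up to 1663 CPM. The part of the library set was not tested. With TMM scaling 4 of the 8 snRNAs were lower in dyskerin libraries and 0 higher, while 4.45% of all genes tested were called lower and 39.9% higher. RNU12 was lower by 5.65 ± 1.59 (SE) on the log2 scale (edgeR, adjusted p = 0.0287), RNU4-1 by 5.78 ± 2.35, RNU4-2 by 5.18 ± 2.16 and RNU2-2P by 5.02 ± 1.88 (adjusted p = 0.0486 for each of the 3). RNU11 was at −6.50 ± 2.90 (adjusted p = 0.0525) and RNU4ATAC at −5.59 ± 3.0 (adjusted p = 0.102) in edgeR. These calls rest on the scaling: with total peak cDNAs the called members were RNU11 at −2.65 (adjusted p = 0.0146) and RNU4ATAC at −1.82 (adjusted p = 0.0404), lower, and RNU5A-1 at 2.25 (adjusted p = 0.0130), higher, while RNU12 was at −1.86 (adjusted p = 0.0993) in edgeR. With DESeq2 no member was called, and RNU12, RNU4-1, RNU4-2, RNU2-2P and RNU4ATAC changed sign to values between 0.049 and 1.01. No member was called in edgeR without the first dyskerin library, without the second dyskerin library or without the second GAR1 library, and 2 were called without the first GAR1 library. RNU5A-1 and RNU5B-1 were at −1.84 and −2.0 with TMM and at 2.25 and 1.79 with total peak cDNAs, so that their direction changed with the scaling.

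The median of all genes tested was itself at 5.55 with TMM, 6.56 with total peak cDNAs and 8.58 with DESeq2. Of the 6443 genes, 7 had no cDNA in either dyskerin library, against 3589 (55.7%) with none in either GAR1 library, and the fitted values of genes with no GAR1 cDNA depend on the prior count. All 8 tested snRNAs had GAR1 cDNAs, and for that reason no distance from the median is given for them. In CPM, 5 of the 8 lay below GAR1 in both dyskerin libraries (RNU4-1, RNU4-2, RNU11, RNU12 and RNU4ATAC), against 6.43% of all genes, of which the 55.7% without a GAR1 cDNA could not lie below. RNU5A-1 and RNU5B-1 lay above GAR1 in both, against 91.4% of all genes, a share that includes those without a GAR1 cDNA, and RNU2-2P overlapped. Pooled per peak cDNA, dyskerin stood at 3.54 times GAR1 for RNU5A-1 and 3.08 times for RNU5B-1, and at 0.398 for RNU2-2P, 0.344 for RNU4-2, 0.262 for RNU4ATAC, 0.251 for RNU12, 0.229 for RNU4-1 and 0.136 for RNU11. The difference of the 2 enrichments over IgG was tested in the same fit and had 0 members called, with 0.0% of all genes called higher and 0.0% lower. Without adjustment 163 genes were higher and 211 lower at p under 0.05, and DESeq2 called 15 higher and 65 lower. That difference had both signs among the members. It was −4.16 for RNU12 (edgeR, adjusted p = 0.684) and −4.60 for RNU2-2P (adjusted p = 0.868), and 5.70 for RNU4-2, 2.38 for RNU4-1 and 1.72 for RNU4ATAC (adjusted p = 0.9998 for each of these 3). It was negative for RNU5A-1, RNU5B-1 and RNU11. Values of members with an IgG group at 0 depend on the prior count and are no bounds.

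**Figure D3:**
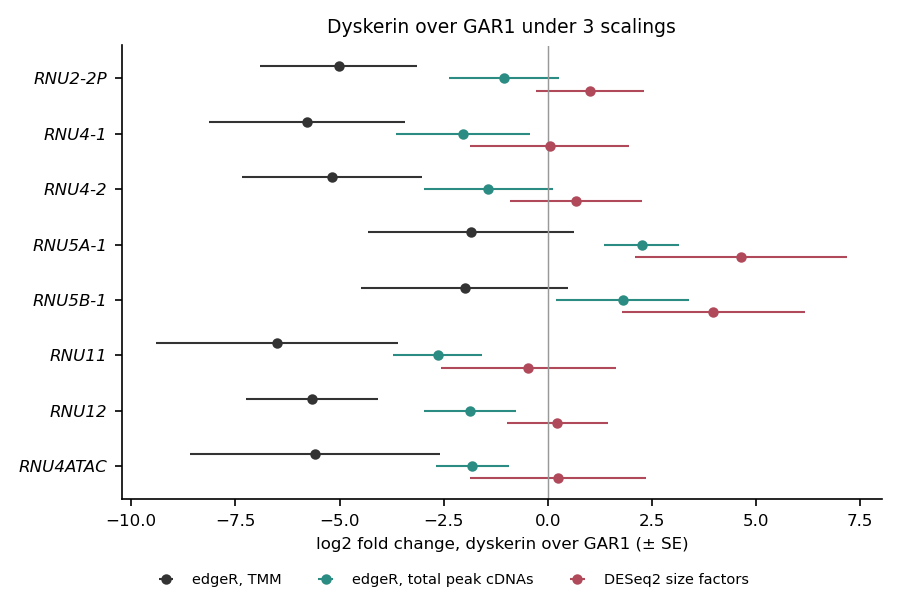
Log2 fold change of dyskerin over GAR1 (x axis) for the 8 tested snRNAs under 3 scalings, as points with SE bars. Signs differ between scalings: RNU12 runs between −5.65 and 0.23, and RNU5A-1 between −1.84 and 4.64.

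Along RNU12 the listed sites were spread over much of the RNA, 85 and 95 of them with dyskerin and 69 and 84 with GAR1. Part of the cDNAs was concentrated in short stretches. The stretch of nt 56 to 66 held 31.1% and 27.7% of the RNU12 cDNAs with dyskerin, 35.9% (33 of 92) and 12 of 20 with its IgG, 45.5% and 39.9% with GAR1, and 47.1% and 39.6% with its IgG. The single nucleotide 75 held 8.79% and 11.3% with dyskerin and 13.02% and 9.19% with GAR1, and it was the highest position in the second dyskerin library and in both GAR1 libraries. With IgG it held 7 of 92 and 6 of 20 cDNAs in the dyskerin set, and 9.64% and 39.6% in the GAR1 set. It was also the highest position in the second IgG library of each set. Nucleotide 75 is the A that opens the ATTTTT motif of RNU12, the form of the Sm element searched here. The 3′ part differed between the dyskerin and the GAR1 libraries, where protein and library set cannot be told apart. From nt 88 to the end, 42% of the length, lay 423 of the 1548 cDNAs of the first dyskerin library (27.3%, 95% Wilson interval 25.2 to 29.6) and 227 of the 2224 of the second (10.2%, 9.02 to 11.5). In their IgG libraries 3 of 92 and 0 of 20 cDNAs lay there. In the GAR1 libraries it was 0 of 1812 and 0 of 8989, and in the IgG libraries of the GAR1 set 0 of 768 and 0 of 53. The highest nucleotide there was nt 117, with 155 and 98 cDNAs. It lies in the terminal 3′ stem-loop of U12, which is known to bind the minor spliceosome protein RNPC3. These intervals cover counting error only, and the 2 dyskerin libraries differed from each other by more than that error. Each library was called by itself, so the 0 concerns listed sites.

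**Figure D4:**
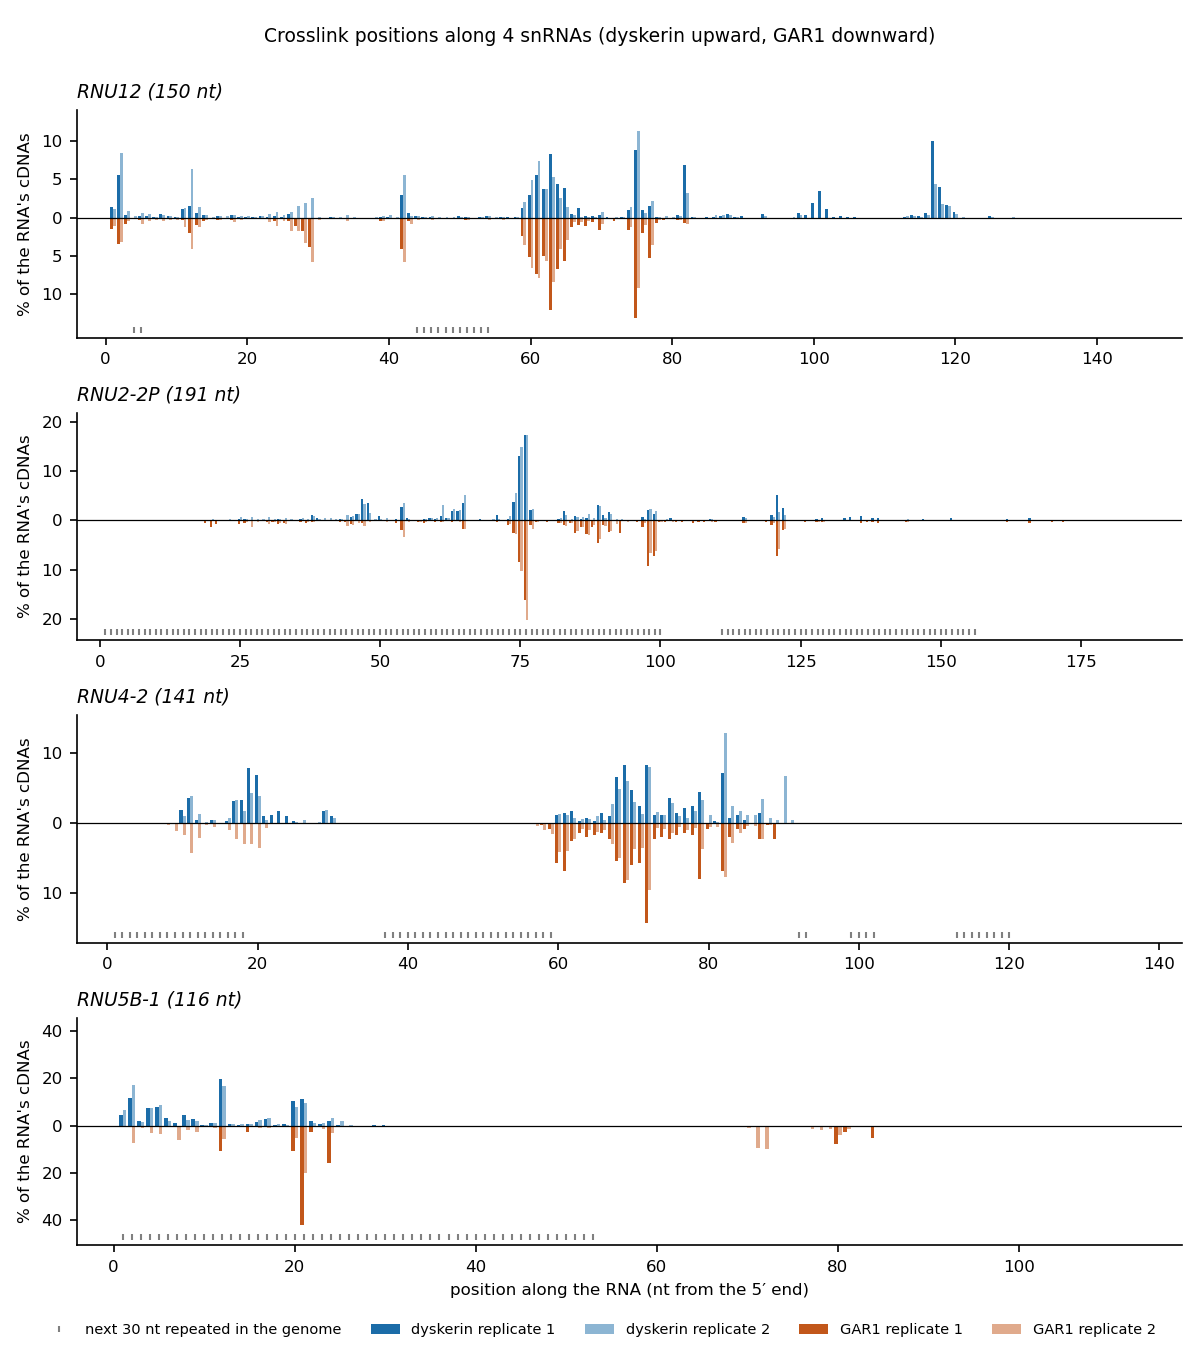
Share of the cDNAs of RNU12, RNU2-2P, RNU4-2 and RNU5B-1 at each nucleotide (y axis, percent; x axis, nt from the 5′ end), with dyskerin upward and GAR1 downward and 1 bar per replicate. Ticks mark nucleotides whose next 30 nt are repeated in the genome; the RNU12 bars at nt 117 appear for dyskerin alone, and the RNU5B-1 bars past nt 30 for GAR1 alone.

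RNU2-2P had its highest position at nt 76 in both replicates of both proteins, with 17.4% and 17.4% of its cDNAs with dyskerin and 16.2% and 20.3% with GAR1, and with 14.9% in the first GAR1 IgG library. The next nucleotide toward the 5′ end, nt 75, held 13.1% and 14.9% with dyskerin and 8.46% and 10.3% with GAR1. The stretch of nt 60 to 80, 10.99% of the length, held 47.1% (Wilson interval 43.2 to 51.1) and 56.04% (53.4 to 58.6) with dyskerin, against 32.6% (28.1 to 37.4) and 39.5% (37.9 to 41.2) with GAR1. The first IgG library of the dyskerin set held 29.5% there (19.6 to 41.9) and that of the GAR1 set 28.6% (23.9 to 33.8). The following stretch, nt 81 to 130, had the reverse order, with 26.8% and 20.1% for dyskerin and 52.6% and 42.96% for GAR1, and with 42.6% and 56.2% in those 2 IgG libraries. GAR1 shares along RNU2-2P were thus nearer to those of IgG than dyskerin shares were. The U2 sequence GTAGTA that pairs with the branch site, nt 33 to 38, held at most 4.92% of the cDNAs in any library with at least 20 of them.

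RNU4-1 had its highest position at nt 69 in both replicates of dyskerin, with 25.4% and 19.0% of its cDNAs, and of GAR1, with 17.7% and 14.9%. Its sites kept to the middle of the RNA: nt 55 to 85 held 100% and 100% with dyskerin and 97.9% and 94.7% with GAR1. The first IgG library of the GAR1 set had 36 of 36 there. RNU4-2 shared that stretch, with 65.0% and 75.8% of its cDNAs at nt 55 to 91 for dyskerin and 100% and 75.8% for GAR1. The same IgG library held 67.2% of its RNU4-2 cDNAs at nt 55 to 91. The first 35 nt of the 2 genes have the same sequence, so the assignment of sites there to RNU4-1 or RNU4-2 is uncertain. How reads were placed between the copies was not tested. Unlike RNU4-1, RNU4-2 also had sites listed in these 35 nt. There lay 149 of 426 cDNAs (34.98%, Wilson interval 30.6 to 39.6) and 127 of 525 (24.2%, 20.7 to 28.03) with dyskerin, and 0 of 353 and 394 of 1631 (24.2%, 22.1 to 26.3) with GAR1. The first IgG library of the GAR1 set had 43 of 131 there (32.8%, 25.4 to 41.3). The 2 GAR1 libraries thus differed from each other in that part, and the first had the sole 0.

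RNU5A-1 and RNU5B-1 were touched at their 5′ ends. All cDNAs of RNU5A-1 in the 4 libraries with at least 20 lay in nt 1 to 30. On RNU5B-1 all 660 and 330 dyskerin cDNAs and all 99 of the first IgG library lay there too, with the highest positions at nt 12 (19.9%) and nt 2 (17.3%). With GAR1 the highest position was nt 21, with 42.1% and 20.2%, and 6 of 38 cDNAs (15.8%, Wilson interval 7.44 to 30.4) and 61 of 193 (31.6%, 25.5 to 38.5) lay past nt 30. Within that part the second GAR1 library had 18 cDNAs at nt 71 and 19 at nt 72.

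RNU11 was crosslinked just before its ATTTTT motif, which begins at nt 88. The motif and the 20 nt before it, 19.4% of the length, held 94.3% and 65.7% of the cDNAs with dyskerin and 98.7% and 57.98% with GAR1. Nucleotide 87 was highest in the first dyskerin library (28.6%) and in both GAR1 libraries (37.97% and 18.7%), and nt 76 in the second dyskerin library (31.4%). The second GAR1 library also had 143 of 476 cDNAs (30.04%, Wilson interval 26.1 to 34.3) in nt 1 to 60, where the other 3 antibody libraries had 0. RNU4ATAC had most of its cDNAs in 2 places. Nucleotides 1 to 30 held 38.9% and 42.3% with dyskerin, and 20 of 50 and 45.7% with GAR1. Nucleotides 70 to 80 held 55.6% and 39.4% with dyskerin, and 12 of 50 and 25.9% with GAR1. RNU4ATAC was the sole member with sites upstream of the annotated start, at 9.86% in the second dyskerin library and at 2.0% and 1.65% in the GAR1 libraries. The 17 dyskerin cDNAs of RNU6ATAC lay between nt 28 and nt 44, with 7 of them at nt 38.

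The Sm-type letters ATTTTT, searched on the sense strand, occur in 32.8% of the 1901 snRNA transcripts and in 8 of the 9 members, RNU6ATAC excepted. Near them the members parted. In RNU12 the motif and the 20 nt before it, 17.3% of the length, held 45.7% and 44.96% of the cDNAs with dyskerin, 48.9% and 95% with its IgG, 73.3% and 57.7% with GAR1 and 65.2% and 92.5% with its IgG. In RNU2-2P the same window held 15.4% and 15.4% with dyskerin, against 22.95% in its first IgG library, and 39.7% and 32.5% with GAR1, against 41.9% in its first IgG library. In RNU4-1, RNU4-2 and RNU5A-1 it held 0% with dyskerin and with GAR1. In RNU5B-1 it held 0% and 0% with dyskerin and 15.8% and 31.6% with GAR1, and in RNU4ATAC 0% and 0% with dyskerin and 10% and 8.23% with GAR1. A match of letters is a description and does not show a protein bound there. Uridine was the base at 47.6% and 50.1% of the dyskerin cDNAs and at 40.5% and 48.03% of the GAR1 cDNAs on RNU2-2P, a sequence with 31.4% U. The first IgG library had 50.8% in the dyskerin set and 47.6% in the GAR1 set. On RNU12, with 24% U, it was the base at 30.04% and 34.3% with dyskerin and at 30.8% and 31.4% with GAR1. There the IgG libraries had 18.5% and 25.0% in the dyskerin set, and 28.3% and 26.4% in the GAR1 set.

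The profiles repeated between replicates to different degrees. The overlap of 2 profiles, the sum over nucleotides of the smaller share, was 68.1% between the dyskerin replicates of RNU12, 78.8% between its GAR1 replicates and 60.9% to 75.5% across the proteins. Some pairs across the proteins thus overlapped more than the dyskerin replicates, and the whole profiles of RNU12 did not separate the proteins. For RNU2-2P the overlap was 78.3%, 79.9% and 59.4% to 69.8%, so that every pair across the proteins overlapped less than either pair of replicates. For RNU4-1 it was 76.8%, 79.7% and 72% to 78.4%, and for RNU4-2 72.6%, 70% and 56.9% to 73.9%, where proteins and replicates could not be told apart. For RNU5B-1 it was 86.4% between dyskerin replicates, 40.4% between GAR1 replicates and 33% to 51.1% across the proteins. The GAR1 pair rests on 38 cDNAs in the first library. On RNU12, 92.1% and 91.95% of the dyskerin cDNAs and 99.9% and 97.98% of the GAR1 cDNAs lay at nucleotides that were also listed in the other replicate.

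Several members have near-identical copies, and reads with up to 50 alignments had been kept, so their counts are uncertain between copies. RNU4-1 and RNU4-2 are 97.2% identical and differ at nt 37, 88, 99 and 113. RNU2-2P is 95.8% identical to RNU2-1 and first differs from it at nt 108. To see how far a site could be placed, the 30 nt after it were looked up in the whole GRCh38 genome on both strands. For RNU12 98.8% and 97.9% of the dyskerin cDNAs and 98.5% and 97.3% of the GAR1 cDNAs stood before 30 nt found nowhere else, and for RNU4ATAC 100% in all 4 antibody libraries. For RNU4-1 it was 98.01% and 99.3% with dyskerin and 96.9% and 91.8% with GAR1, although 46.9% of its positions are unique in this way. For RNU4-2 it was 87.1% and 87.6% with dyskerin and 98.9% and 80.4% with GAR1, with 57.7% of its positions unique. RNU2-2P stood at the other end, with 2.31% and 1.13% for dyskerin and 3.33% and 1.66% for GAR1, and RNU5B-1 had 0% and 0% with dyskerin and 15.8% and 31.6% with GAR1. For RNU5A-1 it was 79.8% and 80.6% with dyskerin and 77.97% in the second GAR1 library. The 5′ sites of RNU5B-1 thus stood before sequence shared with other loci, and its sites past nt 30 did not. In RNU4-1 all 54 positions of nt 1 to 54 stood before repeated 30 nt, against 3 of the 31 positions of nt 55 to 85 where nearly all its sites lay. With 20 nt looked up instead, the RNU12 shares fell to 50.4% and 52.3% with dyskerin and 55.6% and 52.2% with GAR1. In the same order RNU4ATAC had 72.2%, 54.9%, 42.0% and 47.7%, RNU4-1 62.2%, 61.6%, 56.4% and 48.9%, and RNU4-2 41.55%, 51.05%, 57.8% and 39.0%. How surely a site could be placed thus depended on the length looked up. The part of shared sequence in the profiles was not tested.

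**Figure D5:**
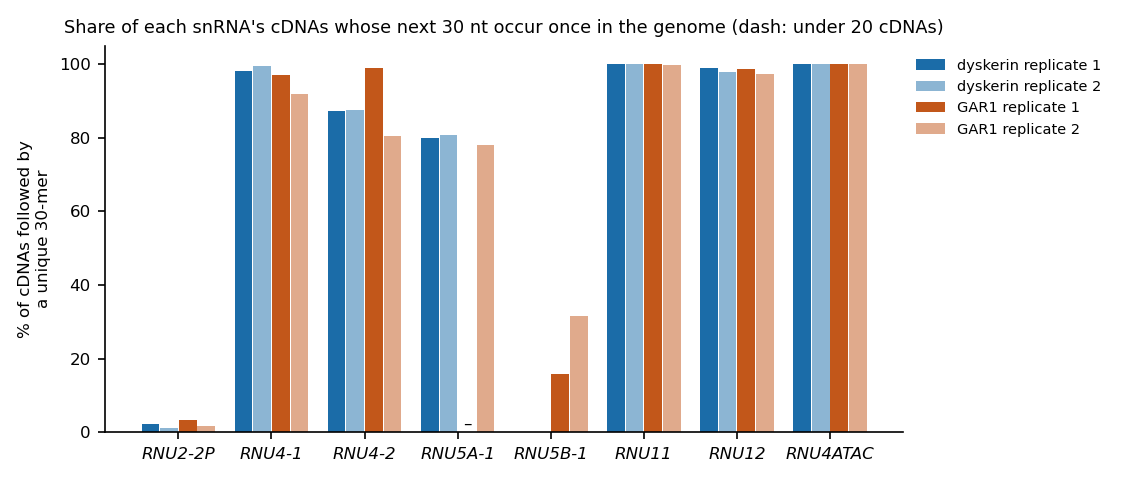
Share of each snRNA's cDNAs (y axis, percent) at sites whose next 30 nt occur once in the genome, with 1 bar for each dyskerin and GAR1 library and a dash where a library held under 20 cDNAs. RNU12, RNU11 and RNU4ATAC reach 97.3% or more, and RNU2-2P stays at 3.33% or less. Shares for the next 20 nt, lower for RNU12 and RNU4ATAC, are not drawn.

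The rest of the snRNA genes gave a frame for these values. Of 16 other named snRNA genes, 7 could be tested, and their median log2 fold change of dyskerin over GAR1 was −3.90 with TMM and −0.39 with total peak cDNAs, against −5.38 and −1.62 for the members. Of these 7, 1 was called lower and 0 higher with TMM, and 0 lower and 2 higher with total peak cDNAs. RNU5E-1, another U5 gene, held 1191 and 991 cDNAs with dyskerin and 55 and 0 with its IgG, and 591 and 1348 with GAR1 and 181 and 1 with its IgG. RNU7-1, the snRNA of histone pre-mRNA processing, held 128 and 90 cDNAs with dyskerin and 3 and 0 with its IgG, and 220 and 559 with GAR1 and 34 and 0 with its IgG. RNU1-1, RNU1-3 and RNU6-1 had no listed site, and RNU2-1 held 19 and 24 cDNAs with dyskerin and 2 and 50 with GAR1 when the 5 nt upstream were counted, of which 7 and 11 with dyskerin and 0 and 33 with GAR1 lay in its body, fewer than in RNU2-2P.

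The guides that direct snRNA pseudouridylation were followed as a second list, 18 scaRNAs with an H/ACA domain, all of which were tested. They held 17695 and 31695 cDNAs with dyskerin and 1966 and 349 with its IgG, and 23915 and 112997 with GAR1 and 12527 and 319 with its IgG. Of the 18, none was called against IgG with either protein, and the median log2 fold change was 0.04 for dyskerin and 4.98 for GAR1, against 3.67 and 5.21 for the 8 tested snRNAs and 2.00 and 0 for all genes. With total peak cDNAs the medians were −0.71 for dyskerin and 0.73 for GAR1 in the scaRNAs, against 3.56 and 0.91 in the snRNAs. No tested snRNA was near the dyskerin medians of the snRNAs. With TMM, RNU5B-1, RNU5A-1, RNU2-2P and RNU12 lay at −0.62 to 0.34, and RNU4ATAC, RNU11, RNU4-1 and RNU4-2 at 6.99 to 10.15. The latter had no IgG cDNA in that set, so their values depend on the prior count. The 0 for all genes goes with the 3223 genes that had no cDNA in the GAR1 set. Dyskerin against GAR1, 16 of the 18 were called lower with TMM and 4 with total peak cDNAs. The median was −6.17 and −2.36, beside −5.38 and −1.62 for the snRNAs. SCARNA10, a guide of U5 modification, held the most cDNAs of the list, 4771 and 8469 with dyskerin and 6972 and 28869 with GAR1. Among the 171 genes with a cDNA in all 8 libraries, those whose log2(CPM + 1) followed the members' sum most closely were SNORD12 (Pearson r = 0.944), SCARNA11 (0.943), SNORA84 (0.938), SCARNA8 (0.935) and SNORA16A (0.933) over the 8 libraries. These points share the depth of each library with the members.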

How the data were processed

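The authors deposited, per library, significant crosslink sites with counts of cDNAs, not normalized. Per their methods and the submitters' processing notes, reads were checked with FastQC 0.11.9, trimmed with Cutadapt, whose version is not given in the sources used here, aligned to GRCh38 (hg38) with STAR 2.7.0e and GENCODE 27, and called with iCount (cDNA mode, up to 50 alignments, 3 nt on either side, 100 permutations, false discovery rate 0.05). The sum over such sites is not a sequencing depth. Deposited clusters were not used.

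Sites were assigned by strand to GENCODE 44 genes, short RNAs first. Genes that reached 10 counts in 2 or more libraries entered edgeR 4.0.16 (R 4.3.3; quasi-likelihood F test, TMM, 4 groups in 1 fit, two-sided, Benjamini-Hochberg over all genes tested), with DESeq2 1.42.0, other scalings, filters and site rules, near-identical copies summed, each library left out and a replicate block as alternatives. The SE given with an edgeR log2 fold change was derived from the test, as the absolute log2 fold change divided by the square root of F. The code was tested on simulated data. The TMM factors were 1.44 and 1.43 (dyskerin), 1.14 and 4.09 (its IgG), 0.307 and 0.0706 (GAR1), and 1.52 and 3.16 (its IgG). CPM are without TMM. Profiles and shares are given for members with at least 20 cDNAs in a library.

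The members and both gene lists were chosen with earlier results of these data known. All 9 members are named, and of the lists any gene with a site in both replicates of an antibody. RNU1-1, RNU1-3, RNU6-1 and the regions along the RNAs were chosen after their values were seen. SCARNA4 has 2 GENCODE records, of which the one with more cDNAs was used. Positions are counted from 1 at the annotated 5′ end. The sequence of RNU5B-1 is not reported here.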

Additional observations from a re-analysis of the deposited data

How the results depend on the processing

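The call of significant sites limits these values: an RNA needs enough cDNAs in its own library to be listed, and the shallow IgG libraries hold few. The counts of calls depend on the scaling and filter. For dyskerin against IgG, genes called numbered 0 with edgeR and 7 with total peak cDNAs, 2 with no filter, 842 with at least 50 counts in 2 libraries (1 snRNA, RNU4-2), 3 with sites of at least 3 cDNAs and 1 with each site counted once. For GAR1 against IgG they numbered 0, and 16 with total peak cDNAs, 128 with DESeq2, 33 with no filter and 25 with at least 50 counts. For dyskerin against GAR1 they numbered 2855, and 6013 with total peak cDNAs, 463 with no filter and 1814 with each site counted once. The snRNAs called there numbered 4, and 0 with DESeq2, 1 with no filter, 1 with exact annotated ends, 1 with sites of at least 3 cDNAs and 7 with each site counted once. For the difference of the enrichments genes called numbered 0, and 192 with total peak cDNAs, 80 with DESeq2, 11 with no filter and 134 with at least 50 counts. The cause was not tested.

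Replicate numbers did not pair the libraries (correlations of deviations from −0.083 to 0.099). With the replicate number as a block, 54 genes and 0 snRNAs were called for dyskerin against GAR1, and RNU5B-1 in dyskerin against IgG was at 0.23. Leaving out each library in turn gave 58 to 3297 genes and 0 to 5 snRNAs for dyskerin against GAR1, 0 to 737 genes and 0 to 3 snRNAs for GAR1 against IgG, and 0 to 95 genes for the difference.

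The snRNAs' share of dyskerin peak cDNAs was 0.0375% with each site counted once, 0.522% when sites needed 3 cDNAs, and 0.154% with only sites before a unique 30-mer, an alternative chosen after seeing the data. Counting each site once, it was 0.903% for GAR1 and 1.17% for its IgG. The share of member cDNAs in or upstream of the first decile of the RNA was 21.3% and 17.2% in dyskerin libraries and 7.17% and 10.4% in GAR1 libraries. It was 14.6% for dyskerin and 12.03% for GAR1 with each site counted once, and 23.2% and 14.3% as a mean over members.

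Log2 fold changes that changed sign were uncalled except where said. In dyskerin against IgG, RNU2-2P was at 1.36 and RNU5A-1 at 0.38 when sites needed 3 cDNAs, RNU5A-1 at 0.090 with DESeq2, and RNU12 at −0.50 with total peak cDNAs, −1.19 with at least 50 counts and −3.15 with each site counted once. Leaving out a library gave −4.26 to 0.090 for RNU2-2P, −1.22 to 8.70 for RNU5A-1, −1.59 to 10.44 for RNU5B-1 and −2.99 to 0.54 for RNU12. In GAR1 against IgG, RNU2-2P was at −0.28 with total peak cDNAs. With DESeq2, RNU2-2P, RNU4-2 and RNU12 were at −0.71, −0.45 and −0.40, with at least 50 counts at −0.56, −0.26 and −0.24, and with each site counted once at −0.095, −0.37 and −0.43. Leaving out a library gave −0.38 to 5.19, −0.052 to 5.24 and −0.030 to 5.29 for these 3. In dyskerin against GAR1 with DESeq2, RNU2-2P, RNU4-1, RNU4-2, RNU12 and RNU4ATAC were at 1.01, 0.049, 0.67, 0.23 and 0.25. RNU5A-1 was at 2.25 with total peak cDNAs (called), 4.64 with DESeq2, 1.31 with at least 50 counts and 3.06 when sites needed 3 cDNAs (called), and RNU5B-1 at 1.79, 3.98, 0.81 and 2.60. Leaving out a library gave −2.82 to 3.78 for RNU5A-1 and −2.79 to 0.32 for RNU5B-1.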
